A study of Mus musculus with 9 samples.

Results

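The genes described here are the 5 EphB receptor genes Ephb1, Ephb2, Ephb3, Ephb4 and Ephb6 and the 3 ephrin-B ligand genes Efnb1, Efnb2 and Efnb3, which are 8 of the 21887 mouse protein-coding genes to which TWIST1 ChIP-seq peaks were assigned. A peak belonged to a gene when its summit lay in the gene body or, outside all genes, when that gene was the nearest within 100 kb. None of the 8 genes overlaps another protein-coding gene. TWIST1 ChIP-seq was made in embryoid bodies on day 3 of differentiation from mouse embryonic stem cells. The overexpressing cells (OE) were Twist1-/- and carried a doxycycline-inducible Flag-Twist1 in the A2loxcre line, and the control cells (KO) were Twist1-/- without the inducible cassette. Both received doxycycline for 16 h, and all libraries are labelled C57BL/6. The labels give the cells as embryoid bodies, while the study's design text describes a neurogenic medium and neuroepithelial cells. Peak lists cannot check the cell type against marker genes, nor the knockout. The peak lists used here come from 4 OE ChIP libraries (1 to 4), 2 KO ChIP libraries (2 and 3) and 1 KO input. By the labelled genotype, TWIST1 in the OE cells came from the cassette, so occupancy is that of an induced protein in cells with no endogenous TWIST1.

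EphB receptors are receptor tyrosine kinases, and ephrin-B ligands are transmembrane proteins on neighbouring cells. Contact between them signals into both cells, and the usual outcome is repulsion or a sharpened border between cell groups. In the mouse and other vertebrates the system keeps streams of migrating neural crest cells apart, guides axons, and separates arteries from veins. TWIST1 is a bHLH transcription factor of mesoderm and cranial neural crest that binds the E-box CANNTG as a dimer.

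The OE libraries fall into 2 sets by the background under their peaks. The sources used here give no read totals, so depth is not known. The background fragment count was recovered from the fold and p-value of the peaks. It can depend on the control and settings given to the caller, which no source used here states. Its commonest value was 1.00 and 1.20 fragments for OE libraries 1 and 4, against 5.38 and 5.29 in OE libraries 2 and 3, 4.73 and 5.09 in KO libraries 2 and 3, and 6.46 in the KO input. OE libraries 1 to 4 listed 22388, 106821, 87441 and 14160 peaks, KO libraries 2 and 3 listed 104 and 71, and the KO input 1774. Where the background had its commonest value, the lowest fold that KO library 2 could list was 3.67, and for KO library 3 it was 3.61.

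TWIST1 peaks lay at EphB and ephrin-B genes in the OE libraries and at none of them in the KO libraries. Over the genome, 49 of the 21887 genes had a KO ChIP peak, so its absence at a gene is the usual state. The 8 genes together received 28, 121, 103 and 21 peaks in OE libraries 1 to 4, against 0 in both KO libraries and 1 in the KO input, at Ephb4. Ephb2 had 8, 27, 26 and 4 peaks in OE libraries 1 to 4 and none in KO libraries 2 and 3. Efnb2 had 5, 26, 23 and 4 peaks in the OE libraries, and Ephb3 had 7, 21, 18 and 5, against none for either gene in the KO libraries. Ephb1 had 2, 26, 20 and 2 peaks, Efnb1 had 3, 13, 9 and 3, and Ephb4 had 3, 5, 4 and 3 in the OE libraries, and all had none in the KO libraries. Ephb6 and Efnb3 had no peak in OE libraries 1 and 4, where they overlap the KO libraries, and had 1 or 2 in OE libraries 2 and 3. The number and height of peaks differ so much between the 2 sets of OE libraries that the spread within OE exceeds the mean for Ephb6 and Efnb3 and nearly equals it for Ephb1 (12.5 ± 12.4, SD, n = 4), while Ephb4 is the most even (3.75 ± 0.957).

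Thus 6 of the 8 genes had more peaks in every OE library than in every KO library, against 34.9% of all protein-coding genes. With no KO peak at any of the 8, this asks only whether every OE library listed a peak. Shares among genes with a like length of surrounding sequence follow below. For the same reason none of the 8 could have fewer peaks in every OE library, as 0.00457% of all genes had. For Ephb2 the difference in mean log2(peaks + 1), OE minus KO, was 3.76 (two-sided exact permutation test, p = 0.0667, n = 4 and 2). For Ephb3, Efnb2, Efnb1 and Ephb4 it was 3.57, 3.56, 2.78 and 2.23 with the same exact permutation p of 0.0667. That is the smallest p that the 15 splits allow, so no gene can pass 0.05 in this design, and none would pass an adjustment over the 21887 genes. Ephb1 had a difference of 3.08 (exact permutation p = 0.133), and Ephb6 and Efnb3 had 0.50 and 0.79 (exact permutation p = 0.467 for both). Within the libraries of like background, OE libraries 2 and 3 against KO libraries 2 and 3, all 8 genes had more peaks in OE, but so had 75.7% of all genes. Each p-value is the share of the 15 splits with a difference at least as large in size. The splits take no account of the 2 sets of OE libraries.

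**Figure D1:**
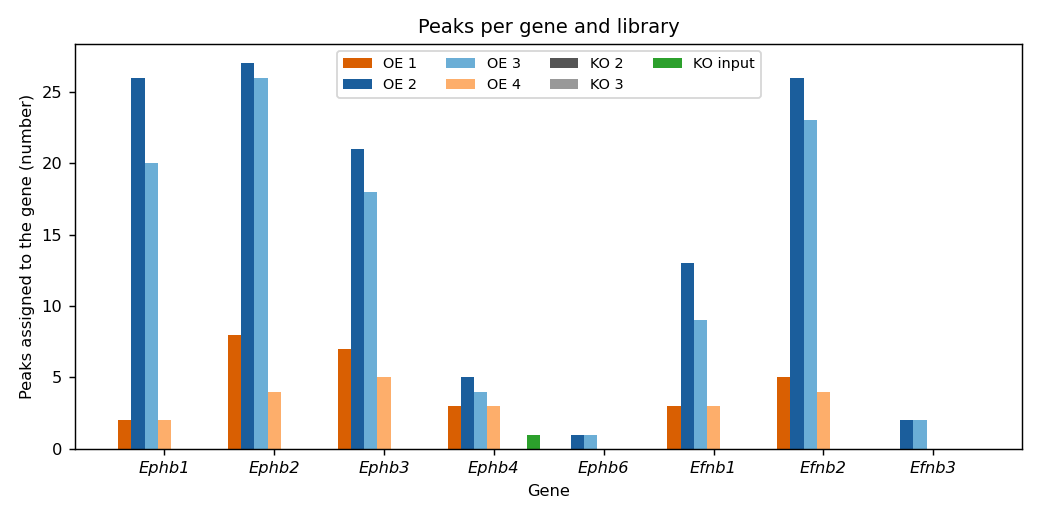
Bars give the number of ChIP-seq peaks assigned to each gene in each of the 7 peak lists, with OE libraries first, then KO libraries and the KO input. The 2 KO libraries have no bar at any gene, and OE libraries 2 and 3 reach 27 and 26 peaks at Ephb2, while OE libraries 1 and 4 have 8 and 4.

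To ask which of these sites were found in every OE library, overlapping OE peaks (by 1 bp or more) were joined. A joined region counts here as shared when it holds peaks of all 4 OE libraries and touches no peak of the KO ChIP libraries or of the KO input. There were 10375 such regions in the genome. Of the 8 genes 5 had a shared region, Ephb1, Ephb2, Ephb3, Efnb1 and Efnb2, against 30.3% of all protein-coding genes. Genes with much surrounding sequence receive more regions. Territory here means the span of sequence, in and around a gene, from which a summit would have been given to it. In the decile of genes with the widest territories, which holds Ephb1 and Ephb2, 58.1% had a shared region, and in the next decile, which holds Ephb3, Efnb1 and Efnb2, 44.7%. In the deciles of Ephb4, Ephb6 and Efnb3, which had none, the shares were 21%, 28.6% and 12.2%. Decile shares were also taken for genes with more peaks in every OE than in every KO library. They were 65.1% for Ephb1 and Ephb2, and 51.7% for Ephb3, Efnb1 and Efnb2. For Ephb4, Ephb6 and Efnb3 they were 24.6%, 34.5% and 12.7%.

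The 8 genes held 16 shared regions, where their territories would hold 6.74 at the genome-wide density. Ephb2, Ephb3 and Efnb2 had 4 each, against 1.07, 0.716 and 0.728 from their territories, and 1.13% of all genes had at least 4. Efnb1 had 2 against 0.716. Ephb1 had 2 against 3.02, in a territory of 608 kb. When peaks were joined by summits no more than 100 bp from the next one, in place of overlap, 10 regions held all 4 OE libraries, at the same 5 genes. Of the 16 regions, 9 had their summit in the gene body and 7 lay outside it. In OE libraries 2 and 3 each of the 16 regions had a fold above the KO listing level at the commonest KO background. Their median width was 1724 bp, against 1135 bp for all shared regions, and the median of their mean percentile of fold within the lists was 85.6, against 71.97.

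**Figure D2:**
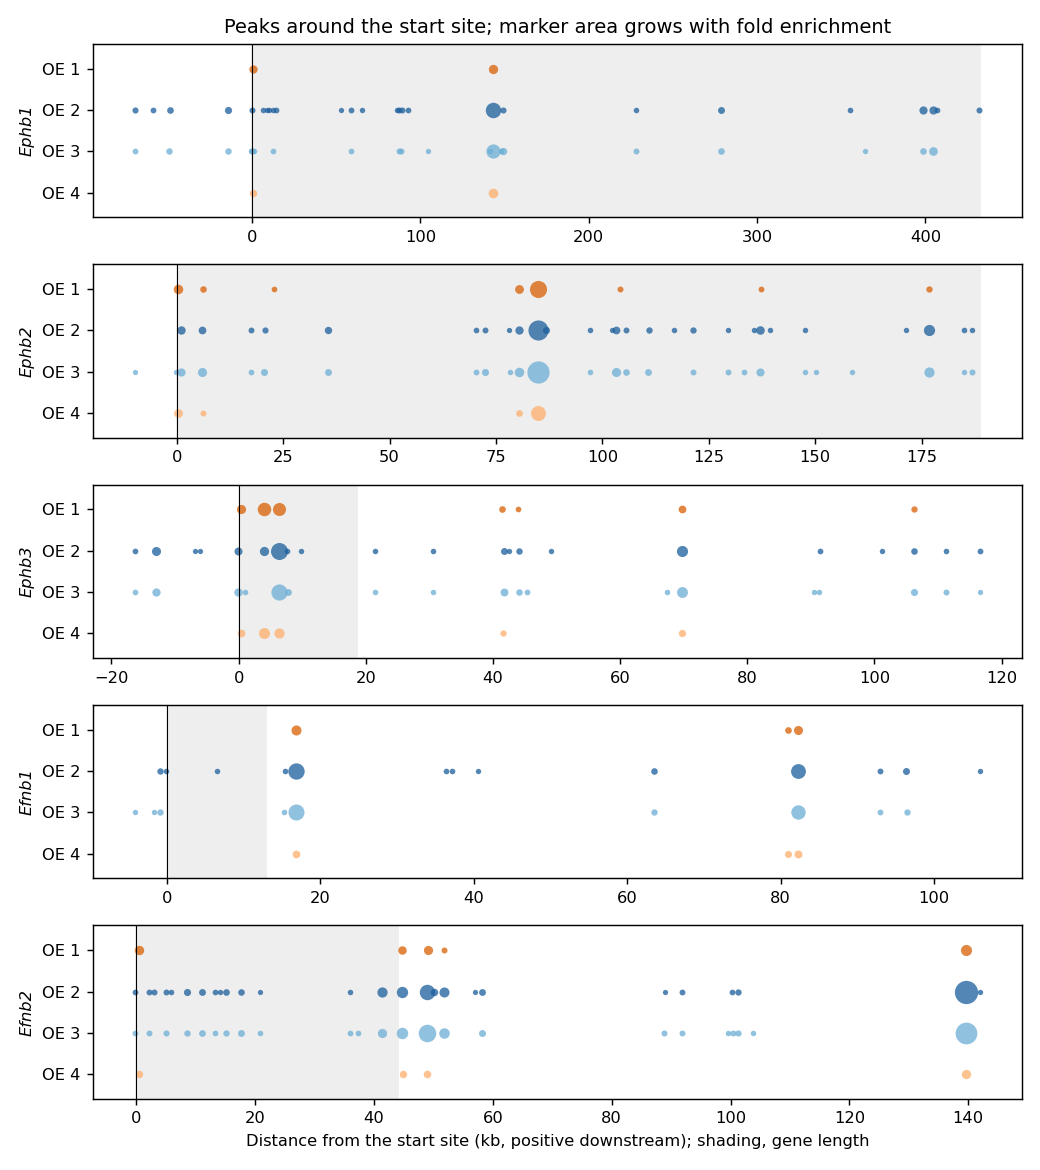
Each panel shows the peaks of 1 of the 5 genes with a shared region, in the 4 OE libraries, by distance of the summit from the start site, with marker area growing with fold enrichment and shading for the length of the gene. Strong peaks stand at the same distance in all 4 libraries, 84976 bp into Ephb2 and 139630 bp downstream of the Efnb2 start site by the summits of OE library 2, and many small peaks appear in OE libraries 2 and 3 alone.

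The start sites are described next, since 3 of the 16 regions (18.8%, against 25.8% of all shared regions on chromosomes with promoter windows) covered the start site of Ephb1, Ephb3 or Efnb2, and another lay just inside Ephb2. The 250 bases upstream of 4 start sites are printed below on the gene's own strand, 5′ to 3′ (RefSeq, GRCm38.p6, whose main chromosomes share their coordinates with mm10). They belong to the 3 genes whose shared region covered the start site and to Ephb4, whose region over the start site held a KO input peak. Capitals mark every match to the E-box CANNTG.
Ephb1 (chr9:102354694-102354943, minus strand): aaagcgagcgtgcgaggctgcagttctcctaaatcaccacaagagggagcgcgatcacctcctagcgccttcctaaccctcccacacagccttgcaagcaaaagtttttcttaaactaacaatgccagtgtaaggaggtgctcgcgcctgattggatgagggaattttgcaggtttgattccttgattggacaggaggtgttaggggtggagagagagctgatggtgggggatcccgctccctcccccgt
Ephb3 (chr16:21204545-21204794, plus strand): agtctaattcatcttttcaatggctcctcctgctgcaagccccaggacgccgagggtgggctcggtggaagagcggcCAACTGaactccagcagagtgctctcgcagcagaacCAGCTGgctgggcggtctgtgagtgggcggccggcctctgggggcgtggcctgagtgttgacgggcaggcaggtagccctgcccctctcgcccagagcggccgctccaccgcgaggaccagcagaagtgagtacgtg
Ephb4 (chr5:137349859-137350108, plus strand): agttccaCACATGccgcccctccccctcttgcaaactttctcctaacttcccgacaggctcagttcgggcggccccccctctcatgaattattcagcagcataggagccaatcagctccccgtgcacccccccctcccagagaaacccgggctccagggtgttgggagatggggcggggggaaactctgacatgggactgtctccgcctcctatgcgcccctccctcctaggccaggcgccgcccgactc
Efnb2 (chr8:8661243-8661492, minus strand): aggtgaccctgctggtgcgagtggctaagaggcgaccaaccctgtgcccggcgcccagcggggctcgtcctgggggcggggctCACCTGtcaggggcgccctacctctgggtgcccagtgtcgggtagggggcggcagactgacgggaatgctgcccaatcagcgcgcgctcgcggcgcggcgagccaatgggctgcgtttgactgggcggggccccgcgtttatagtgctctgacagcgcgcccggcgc

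Positions are counted from the start site, with upstream bases negative. Ephb1 has no CANNTG, Ephb3 has CAACTG beginning at -173 and CAGCTG beginning at -137, Ephb4 has CACATG at -243, and Efnb2 has CACCTG at -167. Over the 17492 promoter windows of the same length, 62.7% hold a CANNTG on either strand, with a median of 1 match, 16.5% hold CACCTG or its reverse complement CAGGTG, and 11.6% hold the palindrome CAGCTG. The motifs CAGATG (with its reverse complement CATCTG) and the palindrome CATATG, in 12.6% and 2.98% of all windows, were found in none of the 7 windows of these genes. Efnb3 was not matched to a window. A match is a run of letters and not a measured site.

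At Ephb4 all 4 OE libraries had a summit upstream of the start site, at -438, -432, -415 and -452 bp. There OE libraries 1 and 4 also had a summit downstream, at 294 and 344 bp, the stronger of the 2 in OE library 4. At the start sites of Ephb1, Ephb3 and Efnb2 the 2 sets of OE libraries had their strongest summits on opposite sides. In OE libraries 1 and 4 the summit lay downstream: 256 and 244 bp into Ephb1, 396 and 396 bp into Ephb3, and 463 and 464 bp into Efnb2. In OE libraries 2 and 3 it lay upstream, at -97 and -52 for Ephb1, at -148 and -158 for Ephb3 and at -164 and -160 for Efnb2. The Efnb2 summits of OE libraries 2 and 3 therefore fell on or within 2 bp of the CACCTG printed above, and those at Ephb3 fell between its 2 E-boxes, but Ephb1 shows the same upstream position with no E-box in its window. At Ephb2 OE libraries 1 and 4 again had summits 352 and 335 bp downstream, while those of OE libraries 2 and 3 lay further in, at 993 and 989 bp. Over the genome, 2426 shared regions covered a single start site, with median summit positions of 91, -52, -47 and 97 bp in OE libraries 1 to 4. In 54.3% of them the summits of both OE libraries 1 and 4 lay downstream of those of both OE libraries 2 and 3, the order seen at Ephb1, Ephb3 and Efnb2.

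OE libraries 1 and 4 and the KO input list have like positions at start sites over the genome. Of the peaks within 1 kb of a start site, 23.4% and 25.2% in OE libraries 1 and 4 had their summit 200 to 500 bp downstream, and 13.4% and 12.5% in OE libraries 2 and 3, against 23.6% in the KO input. No input peak was listed at Ephb1, Ephb2, Ephb3 or Efnb2, and the part of this background in their downstream summits was not tested.

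**Figure D3:**
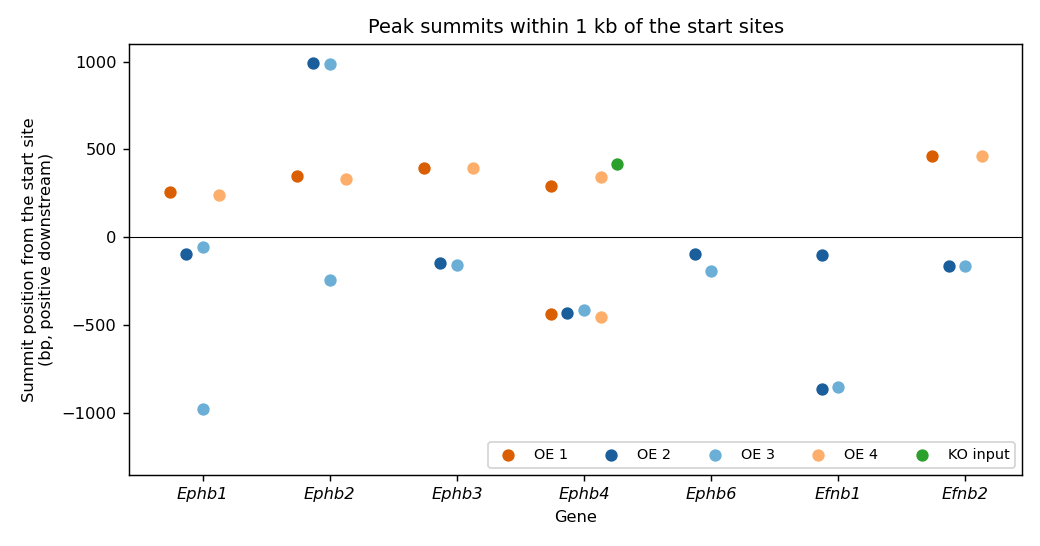
Points give the summit of every peak within 1 kb of the start sites of 7 genes, in bp with downstream positive, coloured by library. OE libraries 1 and 4 sit 244 to 464 bp downstream at Ephb1, Ephb2, Ephb3 and Efnb2, OE libraries 2 and 3 sit upstream at Ephb1, Ephb3 and Efnb2, and the KO input peak lies 419 bp downstream at Ephb4.

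Among the receptors, Ephb2 had the strongest region. EPHB2 guides commissural axons and neural crest cells, and its gene spans chromosome 4, 136647536 to 136836326, on the minus strand (mm10). The strongest region (136748897 to 136752267) lay inside the gene, 84976 bp from the start site by the summit of OE library 2. Its fold enrichment was 92.8, 131, 162 and 69.5 in OE libraries 1 to 4, from 185, 835, 1019 and 152 fragments at the summit, and no KO or input peak was listed there. All 4 lists placed the summit within 26 bp, between 136751010 and 136751036. By mean percentile it ranked 171 among the strongest regions of the 6621 genes that had one.

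The other Ephb2 regions were weaker and lay in the same gene body. The region at 136754944 to 136756253, nearer the start site, had folds of 19.96, 16.9, 24.3 and 8.63 in OE libraries 1 to 4. That at 136828854 to 136830512, 5986 bp from the start site, had 7.99, 13.8, 21.5 and 5.45, and OE library 4 was the lowest at both. The region next to the start site, at 136834581 to 136835929, had 24.5, 17.4, 16.5 and 19.98 and had the smallest spread of the 16 for its mean (19.6 ± 3.56, SD, n = 4). Outside the shared regions, a further peak deep in the gene, at 136658895 to 136659588 in OE library 2, had a fold of 36.1 there. It had 6.99 and 28.8 in OE libraries 1 and 3 and was not listed in OE library 4.

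Ephb3 had regions at its start site, inside the gene and beyond its 3′ end. EPHB3 acts beside EPHB2 in palate fusion, forebrain commissures and the intestinal crypt in the mouse. The gene is short, chromosome 16, 21204620 to 21223309 on the plus strand. Its strongest region (21207944 to 21211829) joined summits of separate peaks. The summit 3929 bp downstream of the start site in OE library 1 reached 55.4, 22.6 and 34.96 fold in OE libraries 1, 2 and 4. The other, at 6290 bp in OE library 2, had 51.4, 92.0, 82.6 and 28.6 in OE libraries 1 to 4, and in OE library 3 a single peak covered both. OE libraries 1 and 4 were higher at the nearer summit and OE library 2 at the farther. The start-site region (21204036 to 21206090) had folds of 21.96, 15.4, 17.0 and 13.6, an even level over all 4 libraries.

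Regions outside Ephb3 lay beyond its 3′ end, towards Vps8. The region at 21274095 to 21274940, 51169 bp from the gene and 148640 bp from Vps8, reached 13.97, 35.7, 34.3 and 11.4, with its summits within 27 bp, and lies in the lncRNA gene Gm16863. The region at 21245327 to 21247419, 23171 bp from the gene, was among the weakest with 8.48, 9.87, 14.8 and 6.81. A peak upstream of the gene, 12846 bp from it in OE library 2, reached 21.3 there and 16.9 in OE library 3 but was not listed in OE libraries 1 and 4.

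Ephb1, a receptor of axon guidance at the optic chiasm, had few regions for its size. The gene covers 432566 bp of chromosome 9 (101922128 to 102354693, minus strand). The inner region (102210910 to 102212466), 143229 bp from the start site, had folds of 22.96, 74.6, 62.8 and 24.97 in OE libraries 1 to 4, with no overlap between the 2 sets of libraries. It lies in the lncRNA gene Gm31233 as well as in Ephb1. The start-site region (102354213 to 102355126) ran the other way, with 16.97, 5.80, 8.26 and 12.3. Of the 26 peaks in OE library 2, 14 were overlapped in OE library 3, and 12 of those in neither OE library 1 nor 4, with a median fold of 6.11.

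Ephb4 lost its region to the input. EPHB4 is the venous receptor for ephrin-B2 in vertebrate vessels, and the gene lies on chromosome 5, 137350109 to 137374522, plus strand. All 4 OE libraries had peaks in 137348323 to 137353028, with highest folds of 12.98, 44.4, 44.8 and 10.9, but a KO input peak (137350438 to 137350655, fold 3.75) lay within it. Before such regions were removed, 6 of the 8 genes had a region, against 31.9% of all genes. The peak upstream of the gene had summits at -438, -432, -415 and -452 bp with folds of 11.98, 44.4, 44.8 and 5.45 in OE libraries 1 to 4, and in OE libraries 1, 2 and 4 it did not touch the input peak. In OE library 3 a single broad peak covered both. OE libraries 1 and 4 also had peaks 294 and 344 bp downstream, close to the input summit at 419 bp, with folds of 8.98 and 10.9. The leading upstream summit lies in the lncRNA gene Gm52791.

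Ephb6 carried little signal. EPHB6 is a receptor without kinase activity. Its gene (chromosome 6, 41603834 to 41620509) had a single weak peak over the start site in each of OE libraries 2 and 3 and none in OE libraries 1 and 4. The folds were 3.29 and 3.18, from 20 and 19 fragments. These folds are below 3.67 and 3.61, the lowest that KO libraries 2 and 3 could list at their commonest background. The KO lists also hold lower folds (medians 3.51 and 2.88), and the KO background at Ephb6 is not known. OE and KO therefore cannot be told apart there.

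**Figure D4:**
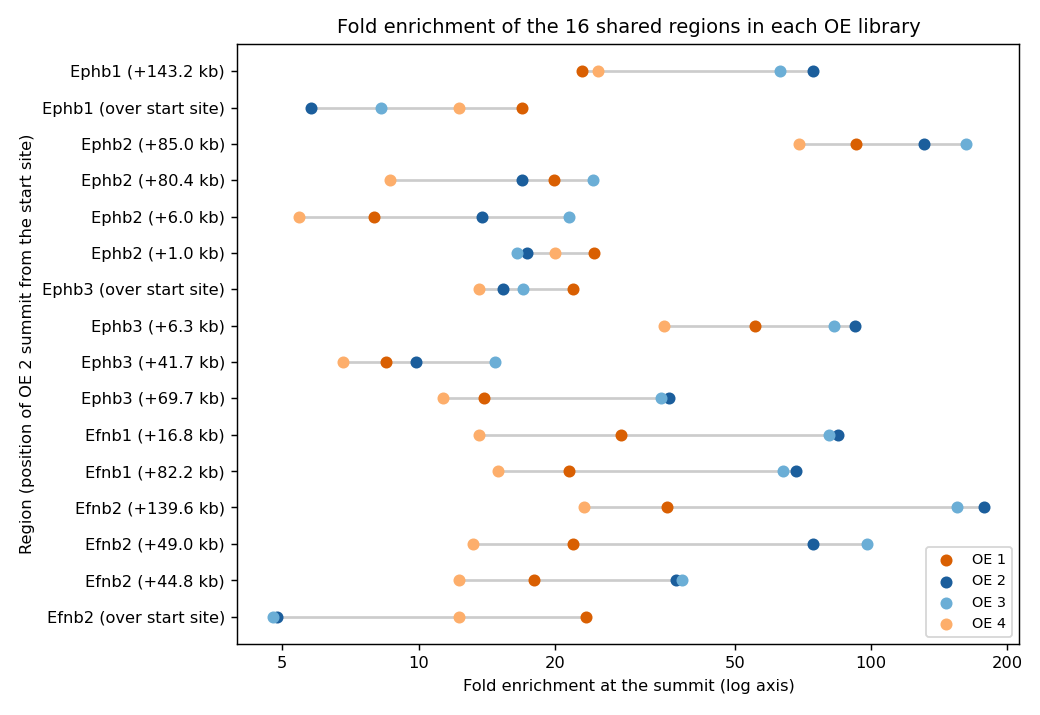
Points give the authors' fold enrichment of each of the 16 shared regions in the 4 OE libraries on a log axis, with regions named by gene and by position of the OE library 2 summit. Regions away from start sites are mostly higher in OE libraries 2 and 3, while the start-site regions of Ephb1 and Efnb2 are higher in OE libraries 1 and 4.

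Among the ligands, Efnb2 had the most regions, and most lay outside the gene. Ephrin-B2 marks arteries and acts in somites and neural crest migration in the mouse. The gene lies on chromosome 8, 8617235 to 8661242, minus strand. Its strongest region (8519824 to 8522490) lay 95623 bp beyond the 3′ end, with folds of 35.4, 178, 155 and 23.2 in OE libraries 1 to 4 and up to 1132 fragments at the summit. No other protein-coding gene was closer: Slc10a2, the next on that side, lies 3416325 bp from the summit. It lies near the 100 kb limit, and without it the strongest Efnb2 region would be the next. The regions at 8610685 to 8612865 and 8615972 to 8617407, 4985 and 776 bp beyond the 3′ end, had 21.96, 74.4, 98.2 and 13.2, and 17.97, 37.1, 38.3 and 12.3. In all 3 of these regions OE libraries 2 and 3 lay above OE libraries 1 and 4.

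The start-site region of Efnb2 (8660544 to 8662170) showed the reverse, with folds of 23.5, 4.86, 4.77 and 12.3 in OE libraries 1 to 4. No base of it was covered by all 4 libraries. The peaks of OE libraries 1 and 4 (8660544 to 8661006 and 8660554 to 8660971) did not touch that of OE library 2 (8661090 to 8661524), and the wide peak of OE library 3 joined them. It was the single such case among the 16 regions. Along the gene body, OE libraries 2 and 3 had further peaks with no partner in OE libraries 1 and 4, such as that at 8619145 to 8620291 with a fold of 29.2 in OE library 2 (22.3 in OE library 3).

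Efnb1 had 2 regions, both beyond its 3′ end and none in the gene. Ephrin-B1 is encoded on the X chromosome, and in humans loss of it causes craniofrontonasal syndrome, a disorder of the facial skeleton and coronal suture. The gene spans X, 99136061 to 99149022, plus strand. The region at 99151985 to 99153773, 3840 bp from the gene, reached 27.9, 84.5, 80.9 and 13.6 fold in OE libraries 1 to 4. The region at 99216167 to 99218762, 69265 bp from the gene and 247447 bp from Pja1, the next gene, had 21.5, 68.3, 63.9 and 15.0. At both, the summits of the 4 lists agreed within 39 bp, and OE libraries 2 and 3 lay above OE libraries 1 and 4. At the start site, OE library 2 had peaks at -101 and -862 bp with folds of 3.92 and 7.37, OE library 3 had 1 at -851 bp with 7.47, and OE libraries 1 and 4 had none.

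Efnb3, the ephrin-B of the spinal midline in the mouse, had the smallest territory, 9.50 kb, between close neighbours on chromosome 11 (69554092 to 69561150). OE library 2 had peaks of 5.80 and 4.70, and OE library 3 had peaks of 5.403 and 4.61 overlapping them, and OE libraries 1 and 4 and the KO libraries had none.

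Fold enrichment thus split the 16 regions by set of libraries. The ratio of the geometric mean fold of OE libraries 1 and 4 over that of OE libraries 2 and 3 was under 1 in 12 regions and over 1 in 4. The 4 were the start-site regions of Efnb2 (3.52), Ephb1 (2.08) and Ephb3 (1.07) and the region just inside Ephb2 (1.30). Their strongest summits spanned 628, 353, 554 and 658 bp over the OE libraries, in that order, so these ratios compare different summits. The same holds for the strongest Ephb3 region (ratio 0.505, span 2363 bp). Over the 13 regions that covered no start site the median ratio was 0.384. All shared regions outside chromosome 18 divide in the same way: the median was 2.36 over 2591 regions that covered a start site and 0.463 over 7467 that did not. The strongest peak of each library was then taken in each of the 16 regions. Summits of OE libraries 2 and 3 lay within 100 bp of each other in all 16 regions. Those of OE libraries 1 and 4 did so in 14, and those of all 4 in 9. The same counts over all shared regions are not given here, so whether these are usual is not known. Because the recovered background differs between the sets, the folds stand side by side as a description. Each fold adds 1 to both fragments and background, which lowers it more where the background is small. The part of this in the split was not tested.

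Many sites appeared in OE libraries 2 and 3 alone. Of the 121 peaks in OE library 2, 91 were overlapped in OE library 3, and 67 of these in neither OE library 1 nor OE library 4. Efnb2 had 18 such peaks, Ephb2 16, Ephb1 12 and Ephb3 9. Conversely, of the 28 peaks of OE library 1, 92.9% were overlapped in OE library 2 and 96.4% in OE library 3, and of the 21 peaks of OE library 4, 95.2% and 100%. At these genes the shorter lists were thus nearly contained in the longer ones, and 19.8% of the peaks of OE library 2 were overlapped in OE library 1. Over the genome OE libraries 2 and 3 listed 106821 and 87441 peaks, against 22388 and 14160 in OE libraries 1 and 4. The same shares over all peaks are not given here, so these counts cannot be called particular to the 8 genes.

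Genes of the signalling partners of EphB receptors and ephrin-B ligands carried regions too. Of 30 such genes 20 had a shared region, 66.7% against 30.3% of all genes, with 39 regions where their territories would hold 28.0. The median territory of the partner genes was 125 kb, against 46 kb for all genes. The 20 genes became 11 with peaks joined by summits and 12 with lists of equal length. The share of all genes was not computed under either setting. Vav2, which acts in Eph receptor endocytosis, led with folds of 270, 807, 1048 and 218 in OE libraries 1 to 4 at its strongest region. Tiam1 and Kalrn, Rac exchange factors that act below EphB in dendritic spines, had 86.3, 238, 184 and 59.0, and 68.4, 148, 114 and 48.1. Pard6b, a polarity protein of the PAR-6 family, which ephrin-B1 binds in Xenopus, ran the other way with 124, 13.95, 14.8 and 46.8 at a region 78 bp from the gene. The adaptor genes Nck1 and Nck2 and the kinase genes Src, Fyn, Abl1 and Abl2 had a region, and the kinase gene Yes1, the protease gene Adam10, the phosphatase gene Ptpn11 and the GTPase activator gene Rasa1 had none. Of the EphA receptor genes 6 of 9 had a region, and of the ephrin-A genes 2 of 5. The EphA genes held 10 regions where their territories would hold 14.6, and the ephrin-A genes held 4 against 2.78. The 8 EphB and ephrin-B genes held 16 against 6.74. The median territory was 348 kb for EphA, 31 kb for ephrin-A and 144 kb for the 8 genes. By mean percentile the strongest regions of Epha3 (99.55) and Efna5 (99.24) stood above that of Ephb2 (99.01). The difference between the families was not tested.

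Other genes had a fold profile like that of Ephb2, the leading gene. By Euclidean distance in log2 of the strongest fold over the 7 lists, with 1 where no peak was listed, the nearest were Actrt2 (distance 0.196), Tsx (0.353) and Tra2b (0.370). Actrt2 had 86.8, 128, 147 and 73.6 in OE libraries 1 to 4 and no peak in the KO libraries or the input.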

How the data were processed

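Each library has its own deposited narrowPeak list. The submitters' processing notes name the tools MACS2, Picard, BWA and Trimmomatic and the builds GRCm38.p5 and mm10. No source used here gives versions, settings or the control given to the caller, on which the listed peaks and their folds depend. The fold over local background, a linear ratio, is the authors' value, as are the deposited −log10 p-value and −log10 q-value. No deposited q-value exceeded 0.01. The score column of the authors served to check the layout alone. Antibody and chromatin steps are per the labels: a TWIST1 antibody on formaldehyde-crosslinked, sonicated chromatin. OE inputs were not analysed here.

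Lists on chromosomes 1 to 19, X and Y were analysed in Python 3.11.15 (scipy 1.17.1, numpy 2.4.6, matplotlib 3.10.9). Coordinates count from 1. Gene bounds came from RefSeq (GRCm38.p6), and start sites and promoters from the RefSeq promoter table of the same build, whose start site can lie inside the bounds of the gene, as at Ephb6. No window on chromosome 18 was used. A region took the summit of its best-ranked peak, and a summit inside overlapping genes counted for each. Territory is the genome length assigned to a gene on a 500 bp grid. The fold was read as (pileup + 1) / (background + 1). The pileup and background at a summit are those whose Poisson p-value matched the deposited value within 0.02 on the −log10 scale, found for at least 99.7% of summits. No genome sequence was used, so E-boxes at distal summits were not searched. Group tests are exact permutations of mean log2(peaks + 1) over 15 splits. Alternatives cover the q-value limit, overlap, libraries required, control removal, distance, list length, left-out replicates, pseudocount and pairing. The steps were tested on simulated data.

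The 8 genes, the 30 partner genes and the other lists were chosen with earlier results of these data known. All 8 genes are named, as are the 4 partner genes whose strongest region ranks highest by mean percentile, the neighbours of regions outside a gene and the 3 genes with the profile nearest to the leading gene. Other partner genes and single peaks outside shared regions were chosen after their values were seen. The design text calls the experiments biological replicates.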

Additional observations from a re-analysis of the deposited data

How the results depend on the processing

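Of the 8 genes, 5 kept a shared region with −log10 q of at least 10, peaks joined by summits within 100 bp of the next, at least 3 of 4 libraries, a 50 kb limit, equal list lengths or a base common to all 4 OE libraries, and they were the same 5 genes in each. The number was 8 with at least 2 of 4 OE libraries or with OE libraries 2 and 3 alone, 4 in gene bodies alone, where Efnb1 is lost, and 5 to 6 when a replicate was left out. Without OE library 3, or with OE libraries 1 and 4 alone, Ephb4 was added. The share of all genes with a shared region was not computed under these alternatives. These counts therefore have no genome-wide value beside them. The 16 shared regions became 10 when joined by summits, 9 in gene bodies alone, and 81 with at least 2 of 4 OE libraries and likewise 81 with OE libraries 2 and 3 alone. When a replicate was left out there were 16 to 22. The 20 partner genes with a region became 11 when joined by summits and 12 with equal list lengths, and were 19 to 22 without a replicate. The count of 6 genes with more peaks in every OE than every KO library ran from 5 to 8 over its alternatives and stayed at 6 when any single replicate was left out. With OE libraries 2 and 3 alone it was 8, where 75.7% of all genes were higher. For Efnb2, the mean fold of its strongest region was 97.7 ± 79.7 (SD, n = 4) and 11.3 within the gene body. No difference in peaks per gene changed sign, though it was 0 at Ephb6 and Efnb3 with equal list lengths and with OE libraries 1 and 4 alone, and at Ephb6 with −log10 q of at least 10. The requirement of a base common to all 4 libraries and the use of OE libraries 1 and 4 alone were chosen after seeing the data.

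Libraries 2 and 3 of OE and KO share a number but nothing in the labels pairs them, and the correlation of their differences over 49 genes with a KO peak was -0.0675. With the replicate block the count was 8 and the difference for Ephb2 was 4.78 (exact permutation p = 0.5, the smallest that 2 pairs allow). Weak sites cannot be compared. At their commonest background, the KO lists could show no fold as low as those of the Ephb6 peaks. Lower folds were listed elsewhere (medians 3.51 and 2.88 for KO libraries 2 and 3), and the KO background at Ephb6 is not known. OE libraries 2 and 3 listed peaks with −log10 p down to 3.67 and 3.72. For KO libraries 2 and 3, of like background, the lowest values were 7.49 and 7.14. The effect of depth itself on these calls was not tested.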
